A study of Rattus norvegicus with 14 samples.

Results

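Rat genes with transcription start sites (TSSs) in more than 1 H3K4me3 peak were examined for which promoter each Schwann cell model used. A gene was taken when its symbol occurred with at least 2 H3K4me3 peaks on one chromosome, and a promoter here is the sum of all TSSs of a gene listed with one peak. The rule was met by 54 of 2993 genes, with 109 of 3048 promoters and 225 of 4993 TSSs. Of these genes, 53 had 2 promoters and Fads2, a fatty acid desaturase, had 3. Promoters were called upstream or downstream by their order along the transcribed strand.

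Tn5Prime, which captures the 5′ ends of transcripts, was applied to 14 libraries. Sciatic nerve came from wild type adult rats aged 6 to 9 months (n = 2). Wild type primary rat Schwann cells, kept in 5% serum, received vehicle (control, n = 3) or 250 µM CPT-cAMP, a cell-permeable cAMP analogue that drives differentiation, for 3 days (n = 3). S16, an immortalised rat Schwann cell line kept in 10% serum, was studied as wild type parental cells (n = 2) and as ΔSOX10 cells, in which genome editing with 2 guide RNAs had disrupted the first coding exon of Sox10 (n = 4 single-cell clones 1-1, 1-2, 2-1 and 2-2). Library totals ranged from 29895599 to 79940274 reads, and 3 reads, the floor used here, corresponded to 0.0375 to 0.10 RPM, the unit of reads scaled to the library total. The primary cell libraries were read on a NovaSeq and the rest on a HiSeq, so between nerve and primary cells the instrument cannot be told apart from the model. Every TSS had been selected in nerve, near an H3K4me3 peak that overlaps a SOX10 peak, so promoters used in culture alone, and those away from such peaks, were not analysed here. Whole nerve also holds other cell types, and in bulk RNA fewer cells of a type and less RNA per cell cannot be told apart. Over the 13 Schwann and myelin markers with a candidate TSS, summed levels were 77580 to 78140 RPM in nerve, 5221 to 5347 in control cells, 12120 to 14040 with cAMP, 10220 to 10490 in parental S16 and 195 to 473 in ΔSOX10 clones. The 3 immature or repair Schwann cell markers with a candidate TSS, Ngfr, Jun and Ncam1, went the other way between nerve and control cells. They summed to 27.0 to 39.8 RPM in nerve, 3155 to 3384 in control cells and 879 to 1016 with cAMP. In parental S16 they summed to 920 to 971 RPM and in ΔSOX10 clones to 73.7 to 128 RPM. The 2 fibroblast markers with a candidate TSS, Col1a1 and Pdgfra, summed to 134 to 138 RPM in nerve, 803 to 909 in control cells, 369.7 to 466 with cAMP, 2255 to 2829 in parental S16 and 2971 to 5302 in ΔSOX10 clones. Itgb4, the 1 perineurial marker with a candidate TSS, was at 51.1 to 51.5 RPM in nerve, at most 5.09 RPM in primary cells and 0 in all S16 libraries. Pdgfrb, a mural cell marker, was at 30.6 to 54.8 RPM in nerve, 0.779 to 1.91 in control cells, 22.4 to 29.6 with cAMP, 4.95 to 6.66 in parental S16 and 3.07 to 19.8 in ΔSOX10 clones. The part of these cell type markers in the results below was not tested.

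Alternative promoters let one gene start transcripts at separate places, which can change the first exon, the protein's start or the conditions under which the gene is read. H3K4me3 is a histone mark found at active promoters, and SOX10 is the transcription factor that Schwann cells need at every stage, including for the genes of peripheral myelin. Cyclic AMP signalling acts on cultured Schwann cells much as axonal signals do and raises myelin genes.

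Sequence upstream of annotated starts is shown for 4 genes whose promoter use or level the results below turn on. The sequences are the 250 bases before a RefSeq start in GRCr8, written 5′ to 3′ on the transcribed strand, and which of the rn5 peaks each belongs to was not determined. They lie at chr7:134259888-134260137 (plus strand) for Nr4a1, chr6:61317179-61317428 (plus strand) for Etv1, chr7:25540201-25540450 (minus strand) for Ano4 and chr4:141276039-141276288 (minus strand) for Crbn. Capitals mark any match on either strand to 4 short motifs. The first is ACAAAG, a SOX-type motif. A shorter SOX-type motif is ACAAT, which is not contained in it. The TATA box was searched as TATAAA. The core of the cAMP response element was searched as TGACG, which reads CGTCA on the opposite strand, and this motif was added after the sequences had been seen.
Nr4a1: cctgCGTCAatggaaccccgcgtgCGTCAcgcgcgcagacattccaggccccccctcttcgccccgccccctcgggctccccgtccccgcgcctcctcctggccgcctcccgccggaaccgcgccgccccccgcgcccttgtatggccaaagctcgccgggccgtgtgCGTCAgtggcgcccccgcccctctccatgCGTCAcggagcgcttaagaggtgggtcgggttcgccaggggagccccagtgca
Etv1: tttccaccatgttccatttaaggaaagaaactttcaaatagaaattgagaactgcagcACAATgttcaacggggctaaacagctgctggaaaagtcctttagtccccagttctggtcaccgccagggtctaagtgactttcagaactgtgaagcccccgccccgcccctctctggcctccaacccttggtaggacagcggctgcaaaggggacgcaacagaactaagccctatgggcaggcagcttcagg
Ano4: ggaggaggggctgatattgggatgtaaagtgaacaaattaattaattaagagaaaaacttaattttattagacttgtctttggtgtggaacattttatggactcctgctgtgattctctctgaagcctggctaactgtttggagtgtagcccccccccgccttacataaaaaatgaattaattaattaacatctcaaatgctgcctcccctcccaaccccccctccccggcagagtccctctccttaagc
Crbn: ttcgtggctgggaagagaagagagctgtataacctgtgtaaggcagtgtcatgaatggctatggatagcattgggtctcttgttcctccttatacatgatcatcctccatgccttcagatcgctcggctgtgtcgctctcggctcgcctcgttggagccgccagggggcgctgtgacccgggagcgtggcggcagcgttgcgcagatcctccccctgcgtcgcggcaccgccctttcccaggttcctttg
The Nr4a1 window held 4 matches to TGACG, and 0.173% of 33469 rat promoter windows of the same length held at least as many. The Etv1 window held 1 match to ACAAT, found in 30.0% of all windows. None of the 4 motifs occurred in the Ano4 and Crbn windows. The cAMP element core occurred in 18.2% of all windows, the longer SOX-type motif in 16.3% and the TATA box in 12.9%. These matches describe letters only. Entries were found for 44 of the 54 genes.

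The promoters of a gene lay far apart in most cases. The gap between neighbouring peaks had a median of 9981 bp over genes and ran from 232 bp in Rpl31, a ribosomal protein gene, to 605139 bp in Magi2, a scaffold protein gene. In 5 genes, among them Ddit3, Nr4a1, Qk and Rpl31, the gap was under 2 kb, so that these peaks could also be read as one broad promoter. In 4 genes (Ddit3, Nr4a1, Qk and Rpl31) a TSS listed with the upstream peak overlaps the downstream one, and promoters are named here by the peak the table lists, not by position. A single TSS made up 73 of the 109 promoters. Of the members' TSSs, 72.9% overlapped their own H3K4me3 peak, against 89.2% of all other TSSs. The span between TSSs exceeded the GRCr8 gene length by over 2 kb in Fads2, Lysmd1, Tuba1b and Zfp865. Tuba1b also lies on another chromosome in GRCr8 than in the table, and the Zfp865 promoters face opposite strands, so the assignment of those promoters to one gene is uncertain. Nr1d1 and Thra, which encode nuclear receptors, share one peak with TSSs on opposite strands.

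In nerve, transcription was divided between promoters more evenly than in culture in many genes. Counting genes with a sum of at least 5 RPM, the most used promoter carried a median of 77.3% of a gene's RPM in nerve (51 genes), 92.7% in control cells (43), 94.5% with cAMP (40), 96.1% in parental S16 (37) and 96.5% in ΔSOX10 clones (31). The upstream promoter was the most used in 29 genes in nerve and the downstream one in 20, whereas the counts were 33 and 9 in control cells and 27 and 9 in parental S16. These are descriptions without a test, and the choice of TSSs in nerve bears on them directly, since a promoter had to be read in nerve to be listed. Of 109 promoters, 18 were at or under 3 reads in every control library, 24 in both parental S16 libraries and none in nerve.

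**Figure D1:**
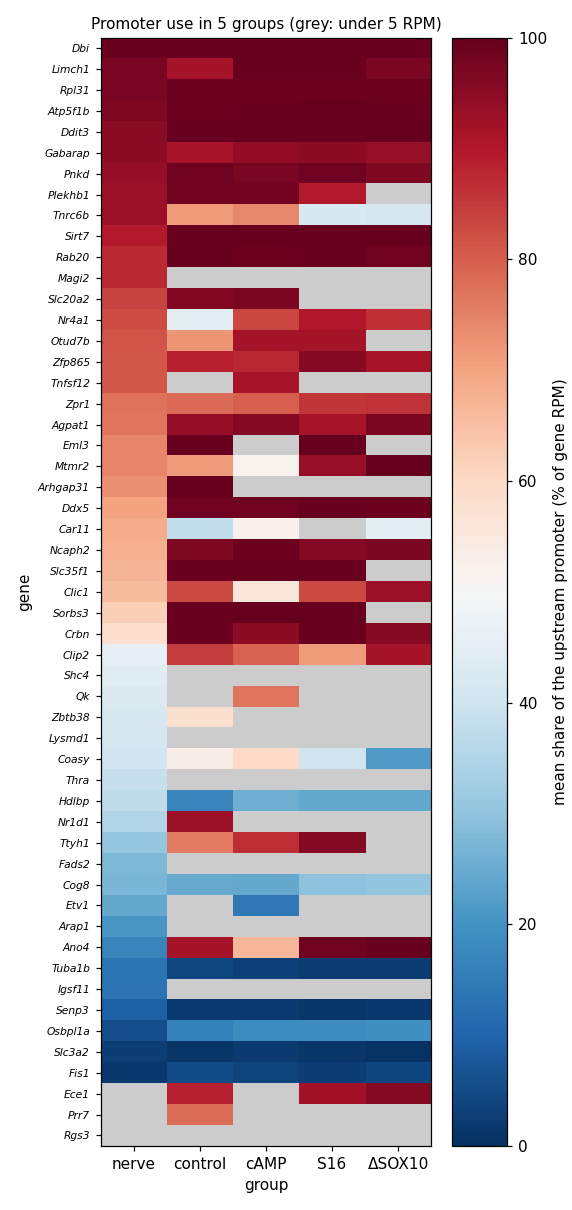
Mean share of the upstream promoter (percent of a gene's RPM, colour) for member genes (rows, ordered by nerve) in 5 groups (columns), with groups under 5 RPM in grey. For Zfp865 the plus-strand promoter is shown. Most genes keep one colour across groups, and Ano4 turns from 17.1% in nerve to 98.8% in parental S16.

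Of 29 genes with at least 5 RPM in all 5 groups, 24 had one most used promoter throughout. Over all 54, the most used promoter differed between some pair of groups in 10 genes: Ano4, Car11, Clip2, Coasy, Nr1d1, Nr4a1, Qk, Tnrc6b, Ttyh1 and Zbtb38. When every single library of both groups had to show the difference, 3 of the 10 remained: Ano4, Coasy and Tnrc6b. For Ttyh1, a membrane protein gene, the upstream share was 55.8% in one nerve and 5.33% in the other.

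**Figure D2:**
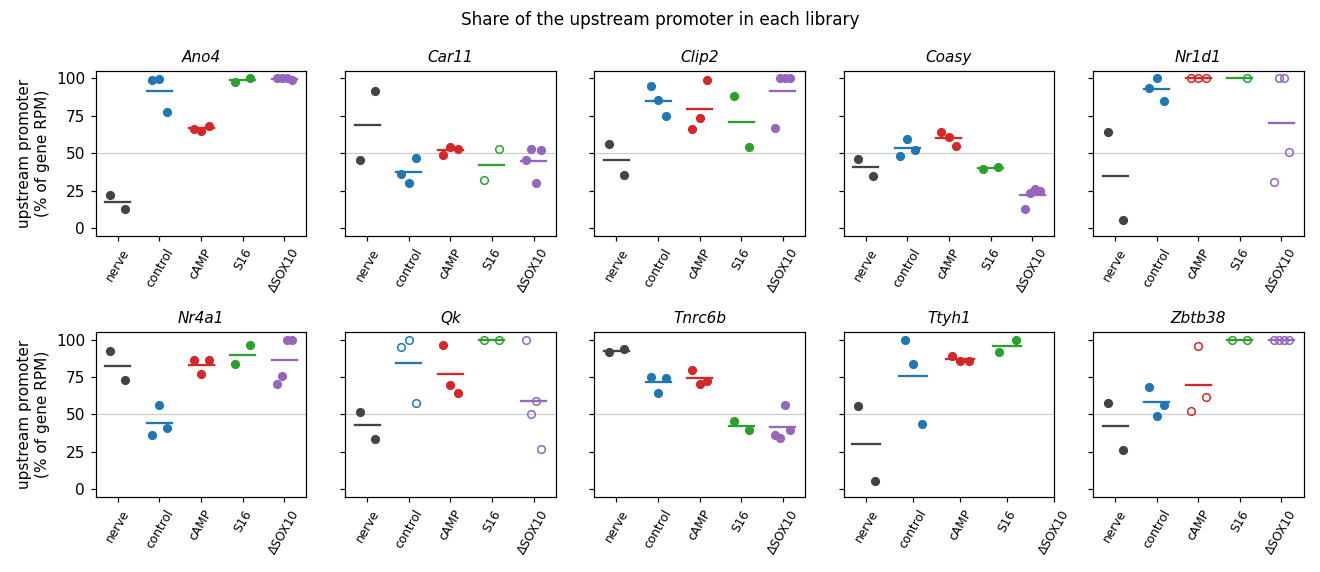
Share of the upstream promoter (percent of the gene's RPM, vertical axis) in every library of 5 groups (horizontal axis) for 10 genes, with lines at group means and open points where the group mean of the gene was under 5 RPM. The 2 nerve libraries lie on opposite sides of 50% for Car11, Clip2, Nr1d1, Qk, Ttyh1 and Zbtb38.

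Use of one promoter against the other was tested in each gene with limma's diffSplice and, beside it, with limma on the log2 ratio of the gene's 2 highest promoters. The fits and the adjustment ran over all genes, and the other genes entered them with single TSSs in place of promoters, so that the percentages over all genes are a background from TSSs that mostly share one peak. The log-ratio test was added after diffSplice had called unchanged genes more often than its threshold allows on simulated reads, so a call by diffSplice alone is the weaker one. Between parental S16 and nerve, diffSplice called 17 of 45 member genes (adjusted p under 0.05), beside 41.6% of all genes tested, and the log-ratio test called 18, beside 39.2%, with 15 called by both tests. Between control primary cells and nerve it called 26 of 46, beside 56.6% of all genes, and the log-ratio test called 26, beside 50.3%, with 22 called by both. These shares are near the background and say nothing particular about the members. In 11 of the 17 and 11 of the 26, one promoter exceeded 1 RPM in both nerves but in fewer than 2 libraries of the cultured group. Such a promoter had been selected in nerve and passed the filter through nerve, so for these genes the values below are a description and no p is given. Among genes called by both tests, sums were under 5 RPM in a group for Arap1, Ece1, Magi2 and Qk in S16 and for Arap1, Magi2 and Shc4 in control cells, so that their shares there cannot be read. Magi2 had no reads in any control or parental S16 library.

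Ano4, which encodes a calcium-dependent membrane protein of the anoctamin family, changed its most used promoter in all cultured groups. Its downstream promoter (chr7:30083086-30085823, rn5, minus strand) was at 36.4 and 47.6 RPM in the nerves and its upstream one (chr7:30092731-30095046) at 10.1 and 6.80 RPM. In parental S16 the downstream promoter was at 0.588 and 0 RPM and the upstream one at 23.3 and 19.5 RPM. The upstream share was 17.1% ± 6.56 (SD, n = 2) in nerve and 98.8% ± 1.74 (n = 2) in parental S16. In control cells it was 91.7% ± 12.6 (n = 3).

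Tnrc6b, a component of microRNA silencing complexes, moved the other way. Its upstream promoter (chr7:121921335-121923802, plus strand) was at 64.6 and 60.5 RPM in nerve, 25.4, 27.5 and 30.3 RPM in control cells and 7.89 and 9.07 RPM in parental S16. The downstream promoter (chr7:122009520-122012973) was at 5.72 and 4.27, then 8.42, 15.2 and 10.4, then 9.52 and 13.9 RPM. The upstream share fell from 92.6% ± 1.09 in nerve to 71.3% ± 6.01 in control cells (limma adjusted p = 0.00418 on the ratio, 0.00154 by diffSplice) and to 42.4% ± 4.15 in parental S16 (0.000159 and 0.000872), with no overlap between libraries. Both diffSplice calls held whichever library was left out.

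Crbn and Sorbs3 had downstream promoters that were read in nerve and low or unread in culture. Crbn encodes cereblon, the substrate receptor of a ubiquitin ligase, and its downstream promoter (chr4:203350429-203351114, minus strand) was at 19.3 and 18.2 RPM in nerve but at 0, 0.565 and 0 RPM in control cells and at 0 in both parental S16 libraries. With cAMP Crbn had 2.09, 3.55 and 0.0293 RPM there, and between 0 and 2.49 RPM in the ΔSOX10 clones. Its upstream promoter (chr4:203355022-203356080) was at 25.1 and 27.2 RPM in nerve, 17.3, 29.7 and 27.1 RPM in control cells and 17.7 and 18.8 RPM in parental S16. The upstream share was 58.3% ± 2.41 in nerve and 99.4% ± 1.08 in control cells. Sorbs3, a cytoskeletal adaptor, had 9.23 and 5.94 RPM at its downstream promoter in nerve and 0 in all 12 cultured libraries. Its upstream promoter was at 12.5 and 11.5 RPM in nerve, 11.1, 9.29 and 9.93 RPM in control cells and 10.2 and 7.34 RPM in parental S16.

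Other genes also had downstream promoters that were lower or unread in culture. Ncaph2, a condensin subunit gene, had 10.4 and 6.70 RPM upstream and 3.78 and 3.91 RPM downstream in nerve, against 45.5 and 38.8 RPM upstream and 0.475 and 2.83 RPM downstream in parental S16, so that the upstream promoter was the one that differed most in level. Slc35f1, a solute carrier family gene, had 2.74 and 13.5 RPM at its downstream promoter in nerve and 0 in all 12 cultured libraries, beside 16.6 and 12.6 RPM upstream in nerve and 14.1, 13.7 and 11.4 RPM in control cells. Shc4, an adaptor of receptor tyrosine kinases, had 4.72 and 5.52 RPM downstream in nerve and 0 in all cultured libraries, while its upstream promoter stayed at 3.10, 4.48 and 2.45 RPM in control cells and was at 0.0678 and 0 RPM in parental S16. The 2 nerves differed in some of these genes: the downstream promoter of Ddx5, an RNA helicase gene, was at 4.55 RPM in one nerve and 22.7 RPM in the other, and that of Nr1d1, a circadian repressor gene, at 3.98 and 8.73 RPM beside 7.19 and 0.521 RPM upstream. Fads2 had all 3 promoters at or under 7.92 RPM in nerve, with its middle promoter at 3.14 and 2.94 RPM there and at 0 in every cultured library but 1 clone.

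Among the 10 genes highest in nerve, most had one dominant promoter in every group. The upstream promoter of Atp5f1b, which encodes a subunit of mitochondrial ATP synthase, carried 96.8% ± 1.33 of its RPM in nerve and 99.6% ± 0.172 in parental S16. That of Rpl31 carried 97.3% ± 1.61 and 99.2% ± 0.332, and that of Gabarap, an autophagy gene, 94.8% ± 1.38 and 94.6% ± 0.150. In Fis1, a mitochondrial fission gene, the downstream promoter was the dominant one, at 404 RPM in both nerves, 299.6 to 304 RPM in control cells and 281 and 258 RPM in parental S16, with 5.86 to 21.0 RPM upstream over these 3 groups. The downstream promoter listed for Tuba1b, an alpha-tubulin gene, rose in share from 86.4% ± 2.70 in nerve to 97.4% ± 0.0899 in parental S16 (diffSplice adjusted p = 0.0045 by limma), a call lost without either parental library, with the doubt about its assignment given above.

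With cAMP, 23 of 88 promoters tested were higher (26.1%) and 6 lower (6.82%), by limma on log2(RPM + 1) with adjusted p under 0.05, against 14.2% higher and 13.5% lower among all promoters tested. At 42 of the 88 the 2 groups had no overlapping libraries, beside 39.9% of all promoters. The median log2 fold change was 0.21 over the members' promoters and -0.02 over all. Of 37 genes with both promoters tested, Ano4 and Etv1 were among those with both called higher, and Clic1 had one higher and one lower. A call at only 1 promoter of a gene does not test a difference between its promoters. Gabarap fell downstream, from 99.8, 79.9 and 106 RPM to 65.2, 58.6 and 41.7 RPM (log2 fold change -0.79, limma adjusted p = 0.002), and its upstream promoter overlapped between the groups (0.13).

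**Figure D3:**
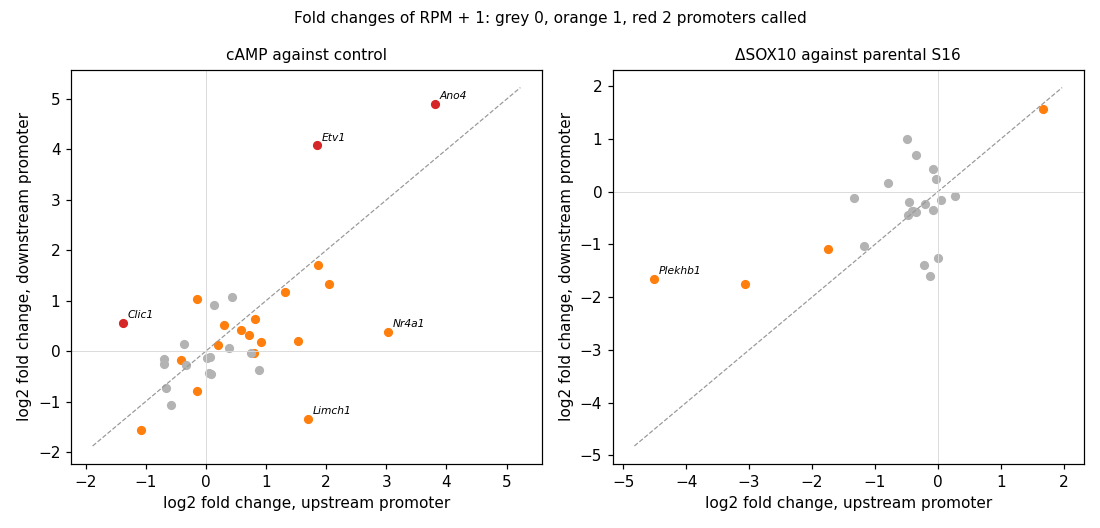
Log2 fold change of RPM + 1 at the upstream promoter (horizontal axis) against the downstream promoter (vertical axis) of genes with both tested, for cAMP against control (left) and ΔSOX10 against parental S16 (right). Colours give how many of the 2 promoters were called by limma, and the dashed line marks equal change. Nr4a1, Limch1, Etv1 and Clic1 lie far from that line on the left, with Nr4a1 TSSs assigned by listed peak and not by position.

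Nr4a1, an immediate early gene for a nuclear receptor and a known target of cAMP signalling, differed in promoter use with cAMP. The 3 TSSs listed with the upstream peak (chr7:140712322-140717846, plus strand) summed to 20.7, 30.8 and 24.4 RPM in control cells and to 229.7, 195 and 208 RPM with cAMP, a log2 fold change of 3.03 (SE 0.17, limma adjusted p = 1.4e-12). Only 1 of the 3 lies inside that peak (chr7:140713127-140713195), at 12.9, 14.6 and 11.9 RPM in control cells and 142, 110.5 and 104 RPM with cAMP, and with it alone the log2 fold change was 3.08. The TSSs listed with the downstream peak (chr7:140718121-140719537) were at 36.1, 24.0 and 35.2 RPM and then at 37.3, 57.9 and 32.4 RPM, which overlap (log2 fold change 0.39, SE 0.25, limma adjusted p = 0.27). The upstream share was 44.5% ± 10.3 in control cells and 83.2% ± 5.28 with cAMP (log2 ratio change 2.64, SE 0.31, limma adjusted p = 2.74e-05 on the ratio, 0.000554 by diffSplice). In nerve the share was 82.6% ± 13.4, above control cells by both tests (limma adjusted p = 0.00523 on the ratio, 0.0106 by diffSplice). The other 2 upstream-listed TSSs overlap the downstream peak. The one at chr7:140718023-140718154 was at 7.81, 16.2 and 12.5 RPM in control cells and 79.1, 79.6 and 93.5 RPM with cAMP. The small change given above for the downstream peak thus depends on the listing. Counted by position, with these 2 placed at the downstream peak, the upstream share was 22.7, 26.6 and 20.01% in control cells and 53.2, 43.6 and 43.4% with cAMP. It was 45.1 and 46.8% in nerve. The control and cAMP shares do not overlap either. The upstream promoter was then the most used in only 1 of the 3 cAMP libraries and in neither nerve. This count by position was added after the values had been seen.

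Clic1, an intracellular chloride channel family gene, had promoters that moved in opposite directions. The upstream one (chr20:7112619-7115825, plus strand) fell from 570.0, 537 and 562 RPM to 231, 189 and 223 RPM (log2 fold change -1.38, SE 0.09, limma adjusted p = 4.7e-11). The downstream one (chr20:7122115-7124836) rose from 112, 113 and 117 RPM to 185, 169 and 156 RPM (0.56, SE 0.12, limma adjusted p = 0.0011). Neither pair of groups overlapped. The upstream share went from 82.9% ± 0.521 to 55.7% ± 3.00 (limma adjusted p = 8.36e-08 on the ratio, 5.78e-05 by diffSplice).

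In all, diffSplice called 4 of 37 member genes for use under cAMP, beside 9.57% of all genes tested: Clic1, Etv1, Limch1 and Nr4a1, each also called by the log-ratio test. In Etv1 both promoters passed the filter through cAMP, and in Limch1 the downstream one passed through control cells. For these genes the call is a description only. The ratio test further called Gabarap and Mtmr2, and 10.2% of all genes. Limch1, an actin-associated protein gene, had 28.2, 31.6 and 30.8 RPM upstream in control cells and 104, 87.3 and 111 RPM with cAMP. Its downstream promoter was at 3.73, 2.09 and 2.39 RPM and then at 0.175, 0 and 1.61 RPM. The level of that promoter was not called, and no p is given because it passed the filter through control cells. Mtmr2, a phosphatase gene mutated in a demyelinating neuropathy, had a downstream promoter at 14.02, 11.97 and 16.4 RPM in control cells and 28.6, 21.0 and 42.9 RPM with cAMP (limma adjusted p = 0.014), while the upstream one stayed between 23.3 and 40.9 RPM in all 6 libraries. The level call for Mtmr2 was lost without cAMP replicate 3.

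Etv1, an ETS transcription factor gene, and Ano4 gained both promoters. Etv1 was at or under 2 reads at either promoter in each control library, so a share in control cells cannot be read and its call for use rests on the levels with cAMP. With cAMP its downstream promoter (chr6:68143147-68143335, plus strand) was at 26.1, 13.999 and 11.4 RPM, at least 294-fold above the floor of 3 reads per library, and its upstream one (chr6:68060080-68064078) at 4.79, 3.01 and 1.144 RPM, at least 51.1-fold. The call for use of Etv1 was lost without any 1 control library, and the call for its upstream level also without cAMP replicate 1 or 2. In nerve the same promoters were at 30.1 and 20.2 RPM and at 11.2 and 5.65 RPM. The Ano4 downstream promoter went from 0.0350, 0.0458 and 1.34 RPM to 46.5, 29.7 and 45.8 RPM. It passed the filter through cAMP, so no p is given for it. The Ano4 upstream promoter went from 2.47, 8.74 and 4.53 RPM to 92.1, 55.0 and 98.7 RPM (limma adjusted p = 7.9e-09).

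**Figure D4:**
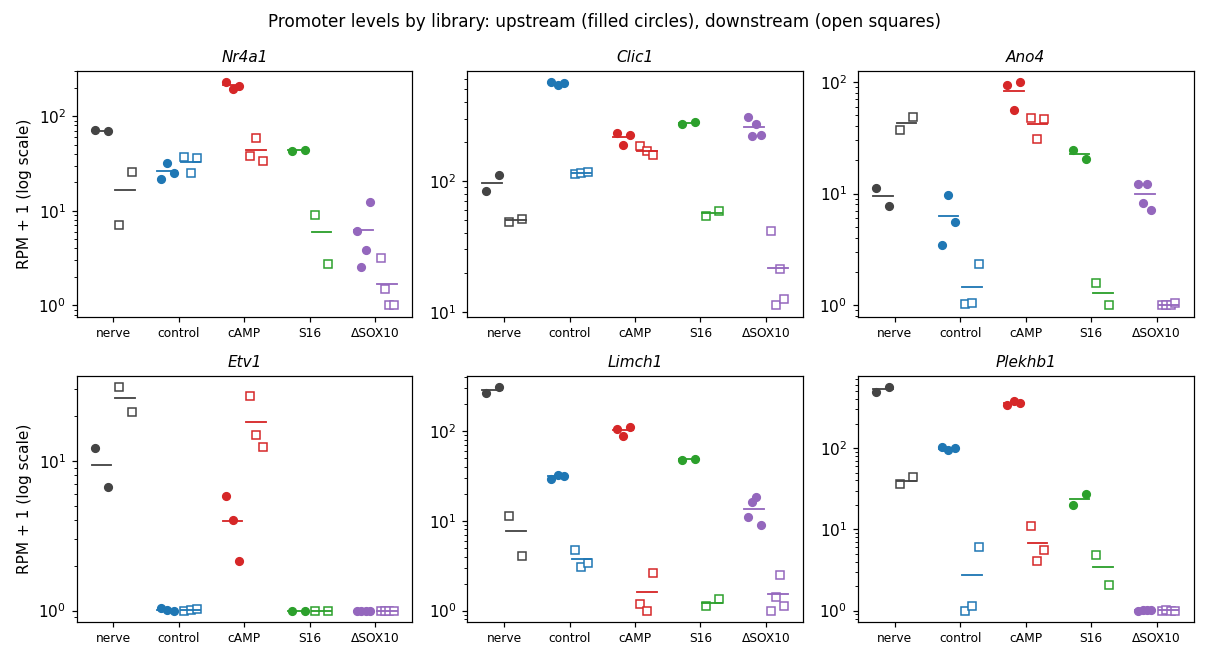
RPM + 1 (vertical axis, log scale) of the upstream (filled circles) and downstream (open squares) promoter of 6 genes in every library of 5 groups (horizontal axis), with lines at group means. Both Etv1 promoters lie at 1 on this scale in all S16 libraries. For Nr4a1, with TSSs assigned by listed peak and not by position, only the upstream promoter separates cAMP from control.

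In ΔSOX10 cells, 9 of 73 promoters tested were lower (12.3%) and 2 higher (2.74%), against 5.87% lower and 2.17% higher among all promoters tested (limma, adjusted p under 0.05). At 26 of the 73 the groups had no overlapping libraries, beside 29.5% of all promoters. The median log2 fold change was -0.35 over the members' promoters and -0.18 over all. Among the 9 were one promoter each of Dbi, Limch1, Nr4a1, Plekhb1, Sorbs3, Ttyh1 and Zfp865. Those of Plekhb1, Sorbs3 and Ttyh1 passed the filter through the parental libraries, with fewer than 2 clones above 1 RPM. The 4 clones came from 2 guide RNAs, and 2 parental libraries carried the comparison, with 4 promoters lower when either parental library was left out.

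Plekhb1, a pleckstrin homology domain gene, was at 19.2 and 25.9 RPM at its upstream promoter (chr1:171878606-171881555, minus strand) in parental S16. There it was at 1 read or none in every clone, at least 264-fold lower. Its downstream promoter was at 3.82 and 1.06 RPM and then at 1 read or none, and was not called. Both promoters passed the filter through the parental libraries, so these values are a description and no p is given.

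The other promoters that fell kept more of their level or were low to begin with. Dbi, the acyl-CoA binding protein gene, went from 1099.7 and 1328 RPM upstream to 368, 411, 304 and 357 RPM (log2 fold change -1.75, SE 0.19, limma adjusted p = 8.6e-05), and its downstream promoter, with 5.52 and 6.30 RPM against 2.17 to 2.34 RPM, did not pass (0.16). Nr4a1 went from 41.8 and 43.2 RPM at the TSSs listed upstream to 5.15, 1.56, 2.81 and 11.3 RPM (-3.06, SE 0.56, limma adjusted p = 0.0053). Its TSS inside the upstream peak went from 27 and 24.7 RPM to 5.07, 1.53, 2.71 and 11.3 RPM. The listed TSS at chr7:140718023-140718154, which overlaps the downstream peak, went from 14.8 and 18.5 RPM to at most 0.109 RPM. Counted by position, the Nr4a1 upstream share was 54.1 and 55.0% in parental S16 and 69.1, 74.1, 96.1 and 100% in the clones, which was not tested. Limch1 went from 46.8 and 47.6 RPM upstream to between 7.89 and 17.2 RPM (limma adjusted p = 0.0068). Higher in the clones were a TSS of Ddit3, a stress-response transcription factor gene, from 49.0 and 44.7 RPM to between 103 and 217 RPM (limma adjusted p = 0.0078; it is listed with the upstream peak but lies inside the downstream one), and the downstream promoter of Car11, a carbonic anhydrase-related gene (0.049). The call for Car11 was lost when any 1 of the 6 libraries was left out, that for Zfp865 (0.047) in 5 of 6 such cases and under other settings too, and those for Limch1 and Sorbs3 without either parental library.

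For use, diffSplice called 1 of 25 member genes in ΔSOX10 cells, Plekhb1, beside 4.58% of all genes, and the log-ratio test called 3, Clic1 and Plekhb1 among them, and 4.34% of all genes. In Plekhb1 both promoters were near the floor in the clones, so the log ratio there was compressed by the pseudocount and is not a measured shift in share. Clic1 was well read in all 6 libraries, with 53.5 and 58.3 RPM downstream in parental cells and 40.8, 10.2, 20.4 and 11.5 RPM in the clones. Its upstream share was 83.2% ± 0.608 (n = 2) and 93.0% ± 3.35 (n = 4; limma adjusted p = 0.0429 on the ratio, 0.283 by diffSplice), so the call was made by one test and not by the other. Coasy, a coenzyme A synthase gene, had upstream shares of 40.1% ± 0.568 and 21.8% ± 6.00 that did not overlap but passed neither test (limma adjusted p = 0.0892 on the ratio, 0.262 by diffSplice).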

How the data were processed

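Levels were deposited as RPM per TSS and library. The authors trimmed reads with cutadapt 1.14, mapped them to rn5 with STAR 2.5.2a, clustered read starts with Paraclu and counted them with featureCounts. Their edgeR fold changes and FDR values in the same table were not used. Here RPM were summed per gene and H3K4me3 peak, and each library's smallest step gave reads and totals, with 100% of values under 1000 reads whole (tolerance 0.01) in 10 libraries and 95.3 to 95.9% in parental S16 and clones 1-1 and 1-2, where a part of the values is rounded. Promoters above 1 RPM in at least 2 libraries of a comparison were tested as log2(RPM + 1) with limma 3.58.1 (R 4.3.3), Benjamini-Hochberg adjusted over all promoters or genes, at 0.05. The planned test of use, diffSplice with Simes p-values, was kept as the main one. Tested on simulated data with the real spread, it was too liberal and missed many changes, so limma on the log ratio was added afterwards and both are given. A first simulation, with one dispersion for all promoters, had a spread well above the real one and was replaced. One member gene is not reported here and is left out of the figures, but counts over members include it. Members, gene lists and tests were chosen with earlier results of these data known. Named genes were those the study discusses, those whose most used promoter differed between groups, up to 12 called for use per comparison, the 10 highest in nerve, those with 3 peaks and those lower in ΔSOX10 cells, and others fell outside that rule and were named after their values were seen (Mtmr2, Ddit3, Magi2, Thra and Lysmd1). Per the study's methods, nerves and primary cell populations were independent, ΔSOX10 libraries were separate clones, and parental S16 libraries were separate RNA samples, whose spread may be technical. Floors cover counting error only.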

Additional observations from a re-analysis of the deposited data

Results flagged for a closer look

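Among the 4 ΔSOX10 clones, 3 of 40 promoters of named genes examined had one clone far from the other 3 by Dixon's criterion, which chance meets in about 1 of 20 groups. The downstream promoter of Clip2, a microtubule-binding protein gene, was at 5.10 RPM in clone 1-1 and at 0 in the other 3. The downstream promoter of Coasy was at 29.9 RPM in clone 1-1 against 37.0 to 38.0 RPM. The upstream promoter of Rpl31 was at 707 RPM in clone 2-2 against 808 to 819.8 RPM.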

How the results depend on the processing

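Left out one at a time, libraries gave 19 to 22 promoters higher and 3 to 6 lower with cAMP (3 without control replicate 1), 1 to 2 higher and 4 to 10 lower in ΔSOX10 cells, and for use 3 to 4 genes with cAMP, 0 to 2 in ΔSOX10, 4 to 9 of 17 in parental S16 against nerve and 13 to 27 of 26 in control cells against nerve (13 without sciatic nerve replicate 2). With 1 library left in an arm, it is assumed to vary like the others. edgeR's quasi-likelihood test gave 3 lower with cAMP and 1 higher in ΔSOX10, and DESeq2 gave 5 higher in ΔSOX10. The count higher in ΔSOX10 was 1 with a pseudocount of 0.1, no filter, TSSs inside their peak, or close peaks merged. diffSpliceDGE gave 2 genes for use with cAMP, 0 in ΔSOX10 and 17 in control cells against nerve. A mean of at least 5 RPM gave 2, 0, 10 and 15 genes in the cAMP, ΔSOX10, S16 and control comparisons. TSSs inside their peak gave 0 in ΔSOX10, 10 in S16 and 16 in control cells. In ΔSOX10, a pseudocount of 5 and no filter each gave 3, and the log-ratio test gave 3. The most used promoter differed between groups in 10 genes, in 3 when every library had to show it and in 6 with TSSs inside their peak. Same-numbered control and cAMP libraries deviated together little (correlations of -0.00599 to 0.0378). This cannot exclude that they were paired, and the numbers were not used as pairs in the main tests. The replicate block gave 24 higher and 7 lower with cAMP, and for use 4 genes with cAMP, 16 in S16 and 19 in control cells against nerve. No paired analysis was possible for ΔSOX10 because its numbers are not those of the parental cells. No named call changed sign, and 144 of 1211 single results lost their call. Each library moved the S16 count (9 without nerve 1, 4 without nerve 2, 5 and 7 without parental 1 and 2). Leaving out a library also removes promoters read in 1 group of 2 libraries from the test, since at least 2 must exceed 1 RPM, and the causes were otherwise not tested.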
